A study of Mus musculus with 4 samples.

Results

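The serpins are a family of protease inhibitors, and their transcripts were followed here in mouse liver exposed to acetaminophen, with and without the histone demethylase Utx. The members were every protein-coding row of the gene table whose name begins with Serpin followed by a clade letter and a number, which gave 61 of 54149 genes, and 60 of these are described. Of the 60, 26 averaged at least 1 FPKM (fragments scaled to gene length and to a library total) and were tested. Each of these 26 was also at 1 FPKM or more in every one of the 4 libraries. The mice were adult females on a C57BL/6 x 129S4/SvJae background, either wild type or with a liver-specific knockout of Utx (gene Kdm6a). All of them, the wild-type mice included, had been fasted for 16 h and had received 300 mg/kg acetaminophen by intraperitoneal injection. Each genotype was represented by 2 libraries, and each library was made from liver RNA of 2 mice pooled together. The Cre line behind the deletion and the time between dosing and collection were not given in the sources used here. No group without the drug was analysed here, so every difference below is between genotypes under acetaminophen.

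Most serpins inhibit serine proteases by a suicide mechanism. An exposed reactive centre loop is offered as bait, the protease cuts it, and the loop then swings into the body of the serpin and drags the trapped enzyme with it. The liver secretes much of the plasma's serpin supply, including antitrypsin, antithrombin, antiplasmin and the C1 inhibitor, whereas the serpins of clade B stay mostly inside cells. A few members have lost inhibition and serve as hormone carriers or chaperones.

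The reads recovered from the FPKM values, summed over all listed genes, came to between 16330451 and 17804730 per library. Kdm6a, the targeted gene, was at 3.40 and 3.85 FPKM in the pools of wild-type mice, against 2.20 and 2.12 FPKM in those of knockout mice, lower in both but not past the threshold (limma adjusted p = 0.0715). The 6 hepatocyte markers summed to 34694 and 42111 FPKM in wild-type and to 38886 and 29450 FPKM in knockout pools, and 0 of the 6 passed the limma test or limma voom, or had an unadjusted p under 0.05. Of 8 tested neutrophil markers 4 fell in the knockout, beside 3.14% of all 11900 genes tested. The list had a summed level of 119 and 181 FPKM against 39.9 and 36.5 FPKM. Camp, also on the list but too low to be tested, went the other way. It had 2 and 0 reads in wild type and 7 and 13 in knockout. Sinusoidal endothelial markers summed to 92.6 and 87.4 FPKM in wild-type and 64.6 and 69.1 FPKM in knockout pools. Of 9 tested, 0 passed limma or limma voom and 4 had an unadjusted p under 0.05, while Clec4g, Kdr and Fcgr2b had log2 fold changes above 0. Kupffer cell and macrophage markers summed to 419 and 331 against 253 and 409 FPKM, and 0 of 11 passed limma or limma voom. Platelet markers summed to 5.93 and 4.79 against 2.46 and 2.54, with 1 of 2 tested (Pf4) lower. Gp9 and Gp1bb of the same list, too low to be tested, had more reads in both knockout pools. Gp9 had 3 and 3 against 12 and 5 reads, and Gp1bb 0 and 0 against 1 and 7. T, NK and B cell markers summed to 3.55 and 4.09 against 3.92 and 4.31. Cholangiocyte markers summed to 263 and 102 FPKM in wild type and 38.8 and 17.5 FPKM in knockout, with 1 of 3 tested (Sox9) lower. Most of that sum was Spp1, at 247 and 89.6 against 33.7 and 12.9 FPKM, while Epcam had a log2 fold change of -0.10. The mesothelial list summed to 1722 and 1547 against 637 and 928 FPKM, nearly all of it Krt8. Its other genes were under 1 FPKM in every library, so this sum is the level of Krt8. Mitochondrial ribosomal RNA took 0.244% and 0.251% of reads in wild type and 0.108% and 0.158% in knockout. In bulk tissue, fewer cells of a type and less RNA per cell cannot be told apart.

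Summed over the family, serpin transcripts took a similar share of each library, and 2 members passed the test. Serpin reads made up 1.65% and 1.87% of all reads in wild type, against 1.94% and 1.98% in knockout. The 5 most abundant members held between 80.2% and 85.4% of the family's summed FPKM in each pool. Serpina6, which encodes corticosteroid-binding globulin, fell in the knockout, and Serpinb9, an intracellular inhibitor of granzyme B, rose. An unadjusted p under 0.05 was found for 8 of the 26 members, or 30.8%, and for 27.1% of all genes tested. The members just named were the 2 calls among the 26 tested members at a limma adjusted p under 0.05, beside 4.74% of all 11900 genes tested. The 1 fall stands beside a background of 3.14% of genes called lower, and the 1 rise beside 1.6% called higher. Over all genes, 190 were higher and 374 lower, a split that became 211 and 255 when the libraries were rescaled to their own recovered reads. The knockout and wild-type pools did not overlap for 10 of the 26 members, 5 lower and 5 higher, whereas they did not overlap for 61.5% of all genes tested. The median log2 fold change was -0.080 over the tested members and 0.013 over all tested genes. The median size of the difference, regardless of sign, was 0.33 for the members and 0.26 for all genes.

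**Figure D1:**
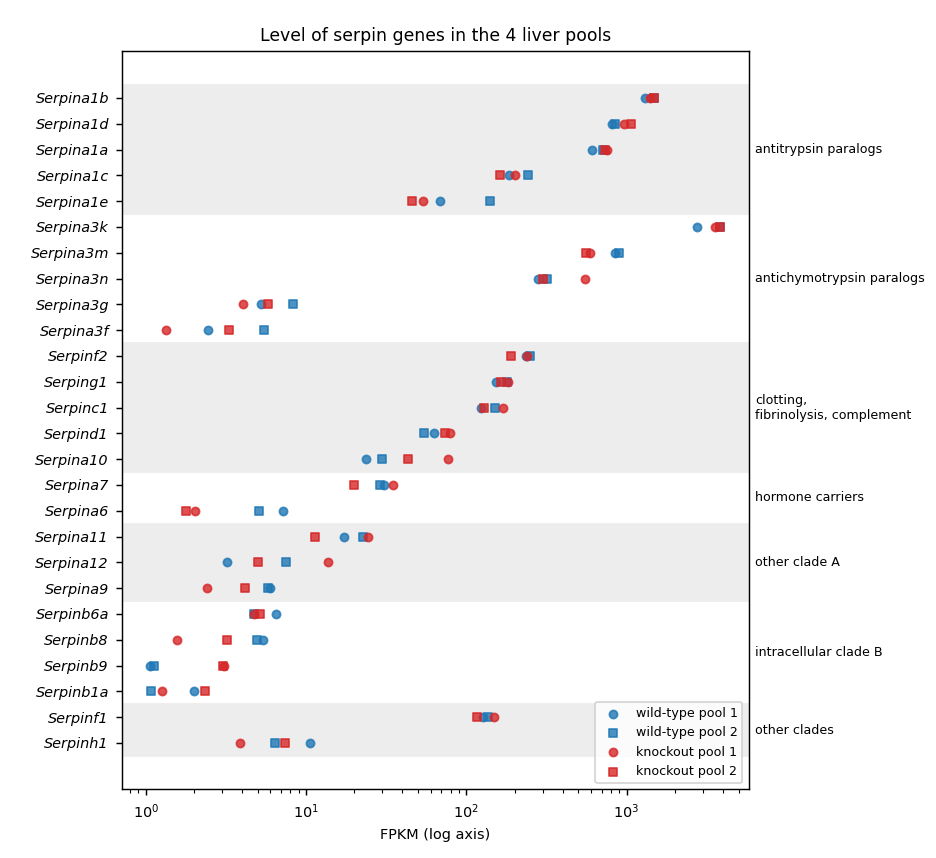
Level of each of the 26 tested serpin genes in FPKM on a log axis, with 1 symbol per liver pool (blue, wild type; red, knockout; circle, pool 1; square, pool 2) and genes grouped by role. The levels span from Serpina3k, at 2749 to 3844 FPKM, down to Serpinb9 and Serpinb1a near 1 to 3 FPKM, and the blue and red symbols do not overlap for Serpina6 and Serpinb9.

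Antitrypsin, which protects tissue from neutrophil elastase, is a single gene in humans but a cluster of closely related paralogs in the mouse. The paralogs differ in the reactive centre loop, whose residues decide which protease is caught, and elsewhere in the transcript. The stretch of 84 bases that codes for the loop, starting at its hinge, is shown for the 5 expressed paralogs. Their reads can be told apart only where the transcripts differ, in this stretch or outside it. Sequences are from GENCODE release M21 transcripts on GRCm38, and capitals mark the 18 positions at which the 5 paralogs are not all the same.
Serpina1a: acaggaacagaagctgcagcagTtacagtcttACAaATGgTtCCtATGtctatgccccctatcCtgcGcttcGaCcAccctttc
Serpina1b: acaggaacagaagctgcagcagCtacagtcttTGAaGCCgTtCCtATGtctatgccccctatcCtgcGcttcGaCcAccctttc
Serpina1c: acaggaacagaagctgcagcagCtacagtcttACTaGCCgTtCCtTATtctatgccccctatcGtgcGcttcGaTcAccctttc
Serpina1d: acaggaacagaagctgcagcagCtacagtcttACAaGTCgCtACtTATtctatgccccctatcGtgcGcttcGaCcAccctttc
Serpina1e: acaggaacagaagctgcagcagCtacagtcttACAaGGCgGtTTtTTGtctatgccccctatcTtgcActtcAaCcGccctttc
Within this window Serpina1c and Serpina1d differed at 5 bases, the fewest of any pair, and Serpina1e differed from the others at 10 to 12. Over whole transcripts, 73.3% of the stretches of 50 bases in Serpina1c occurred unchanged in another serpin, compared with 28.2% for Serpina1b. The listed span of Serpina1b also contains Serpina1d. The division of reads among the paralogs is therefore uncertain, and the effect of the mixed strain background on it was not tested.

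None of the 5 tested antitrypsin paralogs passed the test. Serpina1b was the most abundant, at 1310 and 1481 FPKM in the pools of wild-type mice, against 1409 and 1485 FPKM in those of knockout mice. Serpina1d followed at 815 and 848 FPKM in wild type and 965 and 1059 FPKM in knockout. Its groups did not overlap, but the log2 difference, 0.28 with an SE of 0.16, did not pass (limma adjusted p = 0.314). Serpina1a was at 609 and 708 FPKM in wild type and 759 and 729 FPKM in knockout, and Serpina1c at 184 and 242 against 200 and 163 FPKM. Serpina1e stood at 68.4 and 140 FPKM in the pools of wild-type mice, against 54.1 and 46.1 FPKM in those of knockout mice. Both knockout values lay below both wild-type values, yet the wild-type pools themselves differed 2.05-fold, and the log2 fold change of -0.97 (95% confidence interval -1.93 to -0.0060) had a limma adjusted p of 0.182. It was -1.48 without wild-type pool 1 and -0.45 without wild-type pool 2. Of the 5 paralogs, 1 had an unadjusted p under 0.05 and 0 passed limma voom on recovered reads. Summed over the Serpina1 rows, the level was 2986 and 3419 FPKM in wild type and 3387 and 3482 FPKM in knockout. The log2 fold change of that sum was 0.10 (95% confidence interval -0.44 to 0.65, limma adjusted p = 0.776). Row lengths differ, so this sum still depends on how reads were divided. The summed reads of these rows do not depend on row lengths, but how reads matching several rows were handled is not known. These reads made up 0.589% and 0.624% of wild-type and 0.651% and 0.703% of knockout libraries, higher in both knockout pools and without a test. The pseudogene Gm8893, which overlaps Serpina1b on the same strand, had 834 and 1281 reads in wild type and 1410 and 604 in knockout. Serpina1f had at most 1 read in any library.

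The antichymotrypsin gene has likewise expanded in the mouse into the Serpina3 cluster, whose loops have diverged further. The first 60 bases from the hinge are shown for the 3 most abundant paralogs, compared without gaps, with capitals at the 25 positions that are not the same in all 3.
Serpina3k: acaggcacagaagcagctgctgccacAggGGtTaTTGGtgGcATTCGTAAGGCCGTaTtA
Serpina3m: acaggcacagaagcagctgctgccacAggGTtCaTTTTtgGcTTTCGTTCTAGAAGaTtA
Serpina3n: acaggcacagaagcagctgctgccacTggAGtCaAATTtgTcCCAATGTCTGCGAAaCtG
Serpina3k and Serpina3m differed at 13 of the 60 bases and Serpina3k and Serpina3n at 22. The hinge itself, at the left end, was the same in all 3. The windows were located by a pattern of hinge bases, so most of that likeness was required by the search.

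Serpina3k was the most abundant serpin of the liver and Serpina3m was lower in both knockout pools, but none of the 5 tested Serpina3 paralogs passed the test. Serpina3k was at 2749 and 3844 FPKM in the pools of wild-type mice, against 3546 and 3830 FPKM in those of knockout mice (log2 fold change 0.18, SE 0.26, limma adjusted p = 0.682). Serpina3m was at 845 and 897 FPKM in wild type and 592 and 555 FPKM in knockout. Its groups did not overlap, with pools of 1 genotype within 1.07-fold of each other, and the log2 fold change was -0.60 (95% confidence interval -0.99 to -0.21, limma adjusted p = 0.0924). The listed span of Serpina3m begins at the same base as that of Serpina3k and contains it (GRCm38 chromosome 12, 104338486 to 104394257 and 104338486 to 104346144, plus strand), so reads of the shared stretch may have been counted for either gene. Both together came to 3594 and 4741 FPKM in wild type and 4138 and 4385 FPKM in knockout. Serpina3n, an acute phase serpin, was at 281 and 321 FPKM in wild type but at 548 and 301 FPKM in knockout, so knockout pool 1 was high and pool 2 was within the wild-type range (log2 fold change 0.44, SE 0.32, limma adjusted p = 0.425). Serpina3g, at 4.05 to 8.34 FPKM, and Serpina3f, at 1.35 to 5.47 FPKM, had overlapping groups. In this cluster 1 member had an unadjusted p under 0.05 and 0 passed limma voom. The 10 Serpina3 rows summed to 3883 and 5076 FPKM in wild type and to 4692 and 4696 FPKM in knockout (log2 fold change 0.08, 95% confidence interval -0.57 to 0.73, limma adjusted p = 0.857).

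The 5 tested serpins of clotting, fibrinolysis and complement did not pass the limma test, 2 of them had an unadjusted p under 0.05, and 0 passed limma voom. Serpina10 encodes the protein Z-dependent inhibitor of factor Xa. It was at 23.6 and 29.9 FPKM in wild type and 76.6 and 43.1 FPKM in knockout, higher in both knockout pools, by 1.10 on the log2 scale (SE 0.31, limma adjusted p = 0.113), a value that was 0.69 without knockout pool 1. Serpind1, heparin cofactor II, was at 62.6 and 54.6 FPKM in wild type and 78.8 and 73.9 FPKM in knockout (log2 fold change 0.38, limma adjusted p = 0.145). Serpinc1, which encodes antithrombin, was at 124 and 151 FPKM in wild type and 169 and 129 FPKM in knockout, so its groups overlapped (95% confidence interval of the log2 fold change -0.41 to 0.61). Serpinf2, the plasmin inhibitor antiplasmin, was at 235 and 251 against 240 and 191 FPKM. Serping1, the C1 inhibitor of complement and of the kallikrein system, was at 153 and 181 against 181 and 165 FPKM (95% confidence interval -0.33 to 0.44). Serpina5, the protein C inhibitor, had at most 9 reads in a library, and Serpine2, protease nexin 1, was at 0.176 to 0.514 FPKM. Neither was tested.

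**Figure D2:**
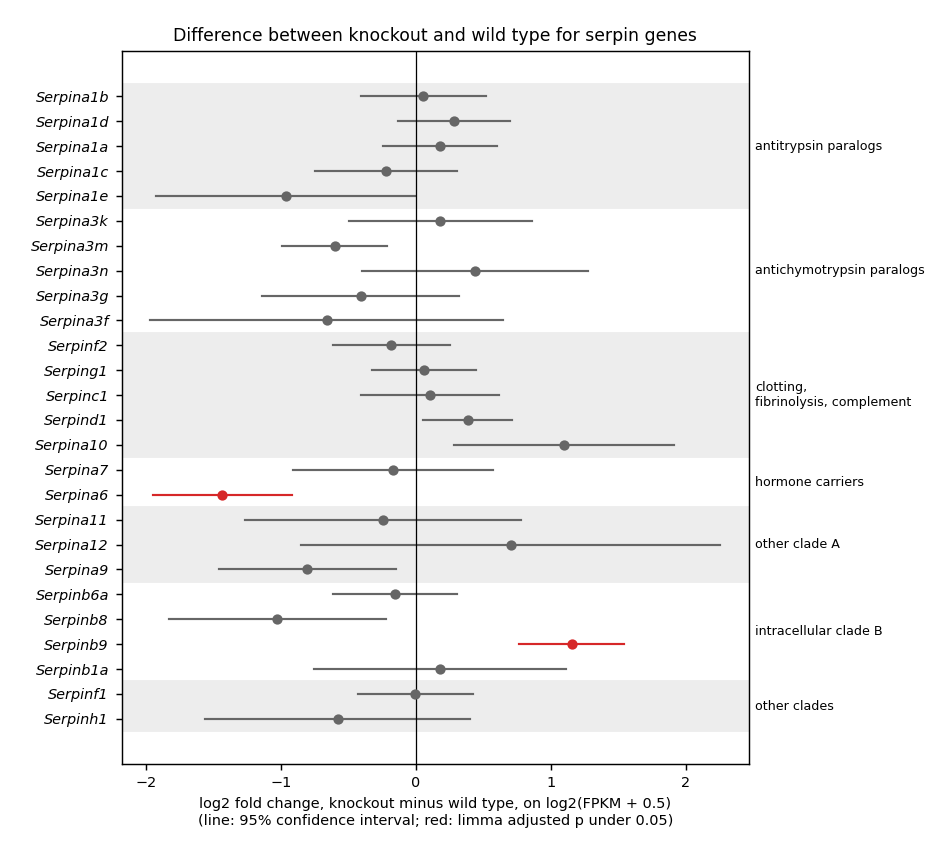
Log2 fold change of each tested serpin gene, knockout minus wild type on the log2(FPKM + 0.5) scale, with its 95% confidence interval as a line and genes grouped by role. Serpina6 and Serpinb9, in red, passed at a limma adjusted p under 0.05. The intervals of 8 of the 26 members exclude 0 before adjustment, a share near the 27.1% of all genes with an unadjusted p under 0.05.

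The proteases that serpins hold in check, with their receptors and cofactors, included 3 that passed the test, all lower in the knockout. Of 46 such genes listed, 35 were tested. Plaur, Thbd and Ctsl fell, and 0 rose, beside 3.14% of all genes tested called lower and 1.6% called higher. The other 32 missed the threshold, and the median over all 35 was 0.00036 on the log2 scale. In that list 15 of 35 genes had an unadjusted p under 0.05, against 27.1% of all genes. By limma voom 3 were called higher and 3 lower, beside 440 and 469 of all 11900 genes. Plaur encodes the cell surface receptor for urokinase, a protease that activates plasminogen. It was at 12.1 and 13.3 FPKM in wild type and 3.24 and 4.59 FPKM in knockout (log2 fold change -1.60, limma adjusted p = 0.0315). Thbd, thrombomodulin of the endothelial surface, was at 8.44 and 10.8 FPKM in wild type and 1.97 and 2.35 FPKM in knockout (log2 fold change -1.92, limma adjusted p = 0.0258). Ctsl, the lysosomal cysteine protease cathepsin L, was at 365 and 371 FPKM in wild type and 206 and 200.4 FPKM in knockout (log2 fold change -0.86, limma adjusted p = 0.0426). Each of these genes was lower in both knockout pools than in either wild-type pool. The part of the neutrophil, endothelial, platelet and cholangiocyte markers, which had lower sums in the same pools, was not tested.

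The plasminogen activators themselves were at low levels, and their substrate was abundant. Plau, the urokinase gene, was at 2.37 and 1.32 FPKM in wild type and 1.90 and 1.48 FPKM in knockout. Plat, the tissue-type activator, was under the limit for testing, at 0.749 and 0.224 FPKM in wild type and 0.0989 and 0.0841 FPKM in knockout, on 79, 22, 11 and 9 reads. Plg, plasminogen, was at 426 and 493 FPKM in wild type and 607 and 499 FPKM in knockout (limma adjusted p = 0.392), and F2, prothrombin, was at 293 and 329 against 289 and 264 FPKM. Lrp1, an endocytic receptor that clears complexes of serpins with proteases, was at 34.5 and 29.9 FPKM in wild type and 64.5 and 51.3 FPKM in knockout, higher in both knockout pools but not past the threshold (limma adjusted p = 0.0631). The elastase-type proteases of neutrophils were under the limit for testing. Elane had 7 and 6 reads in wild type and 6 and 3 in knockout, and Ctsg had 0 and 2 against 2 and 5. Prtn3 had 7 and 21 reads in wild type and 22 and 48 in knockout, higher in both knockout pools.

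**Figure D3:**
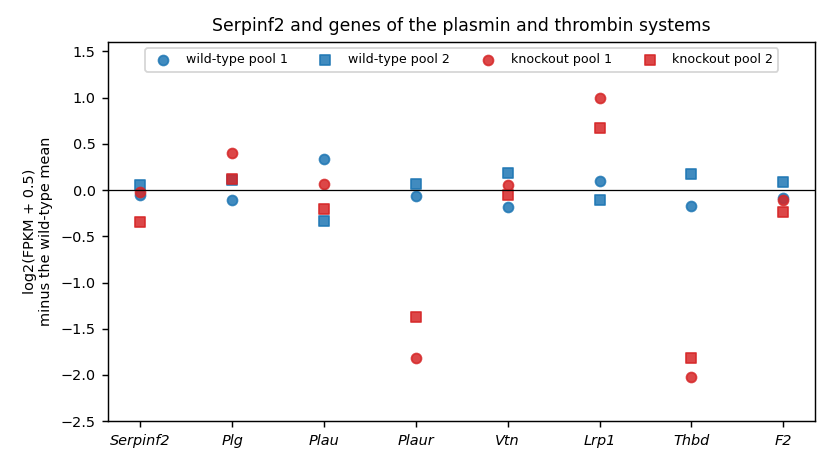
Values of log2(FPKM + 0.5) minus the wild-type mean for Serpinf2 and 7 genes of the plasmin and thrombin systems, with 1 symbol per pool. Both knockout pools lie more than 1 unit below 0 for Plaur and Thbd, whereas Serpinf2, Plg, Plau, Vtn (vitronectin, an adhesive plasma protein) and F2 lie within 0.5 of 0.

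Of the hormone carriers, which are serpins without protease targets, Serpina6 fell and Serpina7 did not pass the test. Serpina6 (ENSMUSG00000060807, GRCm38 chromosome 12, 103646630 to 103657212, minus strand) encodes corticosteroid-binding globulin, the plasma carrier of glucocorticoids. It was at 7.15 and 5.06 FPKM in the pools of wild-type mice, against 2.04 and 1.79 FPKM in those of knockout mice, on 213, 140, 64 and 54 reads. Both knockout pools were below both wild-type pools, and the mean was 3.19-fold lower. On the log2 scale it fell by 1.44, with an SE of 0.20 (95% confidence interval -1.95 to -0.92, limma adjusted p = 0.0399). Leaving out any 1 of the 4 libraries ended the call, with adjusted p of 0.0870 without wild-type pool 1, 0.0643 without wild-type pool 2, 0.101 without knockout pool 1 and 0.0832 without knockout pool 2, and so did rescaling to recovered reads (0.0513). Serpina7, thyroxine-binding globulin, was at 30.5 and 29.0 FPKM in wild type and at 34.9 and 19.9 FPKM in knockout, with the knockout pools on either side of the wild-type values (95% confidence interval of the log2 fold change -0.92 to 0.57). The difference between the responses of the 2 carriers was not tested.

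The remaining tested members of clade A were Serpina9, Serpina11 and Serpina12, and 0 of these 3 passed limma or limma voom, while 1 had an unadjusted p under 0.05. Serpina9 was at 5.99 and 5.83 FPKM in wild type and 2.40 and 4.14 FPKM in knockout, lower in both knockout pools (log2 fold change -0.81, limma adjusted p = 0.132). The value was -0.47 without knockout pool 1. Serpina12 encodes vaspin, an adipokine. It was at 3.22 and 7.48 FPKM in wild type and 13.8 and 5.01 FPKM in knockout, a spread of 2.32-fold and 2.75-fold between pools of the same genotype. Serpina11 was at 17.3 and 22.8 FPKM in wild type and 24.5 and 11.4 FPKM in knockout. For Serpina11, as for Serpina3n, Serpina7, Serpina10 and Serpina12, knockout pool 1 was over 1.5 times as high as knockout pool 2. The reverse held for Serpina3f, Serpina9, Serpinb1a, Serpinb8 and Serpinh1, where pool 2 was over 1.5 times as high as pool 1.

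Serpinb9 was the 1 member that rose, and its neighbouring paralogs also had more reads in the knockout. Serpinb9 (ENSMUSG00000045827) lies on chromosome 13 of GRCm38 (33003250 to 33017957, plus strand). Its product inhibits granzyme B, the death-inducing protease of cytotoxic lymphocytes, and protects the cell that makes it. The RefSeq promoter window of Serpinb9, chr13:33004291-33004590 of GRCm38.p6 on the plus strand, runs from 250 bases before the start to 50 after it and is shown because this member rose. Its start lies inside the span that the deposited table lists for the gene. Capitals mark a match to the core of interferon response elements, searched as GAAA, then any 2 bases, then GAAA, and found here on the opposite strand.
Serpinb9: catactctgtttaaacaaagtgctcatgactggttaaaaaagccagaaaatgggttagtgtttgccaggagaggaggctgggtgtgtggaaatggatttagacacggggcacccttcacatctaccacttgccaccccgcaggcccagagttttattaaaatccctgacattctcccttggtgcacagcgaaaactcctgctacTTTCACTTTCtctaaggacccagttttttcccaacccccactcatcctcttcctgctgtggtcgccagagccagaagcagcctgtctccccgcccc
Searched on both strands, that motif occurred in 3.44% of all 32851 promoter windows of this length and in 3 of the 61 windows of serpin genes. Among tested members it was also in the window of Serpinb6a, which did not pass the test (log2 fold change -0.15, limma adjusted p = 0.606). A match describes the letters only and shows neither a bound site nor a cause.

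Serpinb9 was at 1.07 and 1.13 FPKM in the pools of wild-type mice, against 3.08 and 3.02 FPKM in those of knockout mice, on 63, 62, 192 and 181 reads. The pools of each genotype were within 1.06-fold of each other and the groups lay far apart, with a mean 2.78-fold higher in the knockout. On the log2 scale it rose by 1.15, with an SE of 0.15 (95% confidence interval 0.76 to 1.54, limma adjusted p = 0.0369), and limma voom on the recovered reads gave 1.53 (adjusted p = 0.0224). Leaving out wild-type pool 1, wild-type pool 2, knockout pool 1 or knockout pool 2 gave adjusted p of 0.0944, 0.0892, 0.140 and 0.0965, with log2 fold changes between 1.13 and 1.18. The call was also lost with no filter on low values (0.113). Of the T, NK and B cell markers none reached the level for testing. Gzmb, the granzyme B gene, was at 0.206 and 0.487 FPKM in wild type and 0.547 and 0.569 FPKM in knockout, on 5 to 14 reads.

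The paralogs Serpinb9b to Serpinb9g were too low to be tested, and were looked at together only after their values had been seen. Together they had 12 and 11 reads in wild type, against 48 and 46 in knockout. Serpinb9e had 10 and 7 reads against 19 and 15, Serpinb9c had 2 and 0 against 7 and 15, and Serpinb9f had 0 and 2 against 9 and 6. Serpinb9g had 0 and 1 against 6 and 6, Serpinb9d 0 and 0 against 1 and 3, and Serpinb9b 0 and 1 against 6 and 1. Both knockout pools exceeded both wild-type pools in each of these rows except Serpinb9b, where knockout pool 2 equalled wild-type pool 2 at 1 read. Among all genes tested that order was seen for 31.6%, and its share among rows with so few reads was not computed. Of the stretches of 50 bases in Serpinb9f, 52.8% occurred in another serpin, so reads may have been shared among the paralogs. For Serpinb9 itself that share was 0.378%.

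**Figure D4:**
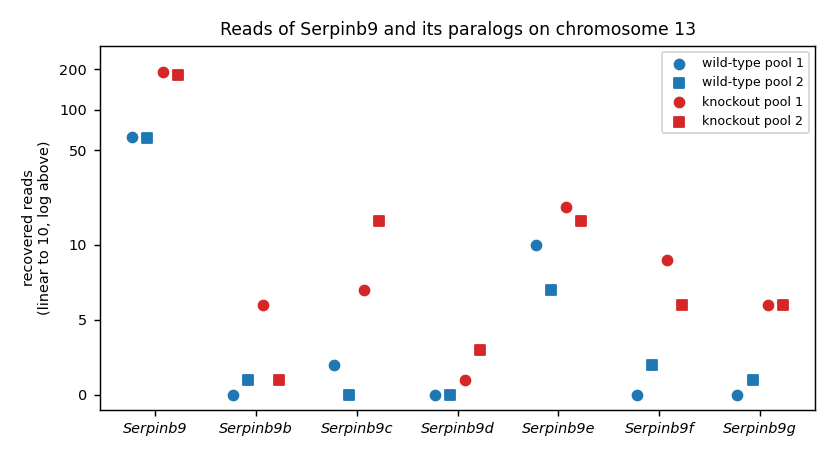
Recovered reads of Serpinb9 and its 6 paralogs in each pool, on an axis that is linear up to 10 reads and logarithmic above. Serpinb9 had 62 and 63 reads in wild type and 181 and 192 in knockout, and the paralogs ranged from 0 to 10 reads in wild type and from 1 to 19 in knockout.

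Among the other intracellular serpins, Serpinb8 was lower in both knockout pools without passing the test. It was at 5.42 and 4.92 FPKM in wild type and 1.57 and 3.22 FPKM in knockout (log2 fold change -1.03, SE 0.30, limma adjusted p = 0.123). The value varied with the knockout pool left out, at -1.45 without pool 2 (limma adjusted p = 0.0478, past the threshold) and -0.60 without pool 1 (0.207). Without either wild-type pool it did not pass (0.277 and 0.231). Its RefSeq promoter window, chr1:107589756-107590055 of GRCm38.p6 on the plus strand, is shown as a contrast to that of Serpinb9, and capitals mark 2 matches to TGANTCA, the recognition sequence of AP-1.
Serpinb8: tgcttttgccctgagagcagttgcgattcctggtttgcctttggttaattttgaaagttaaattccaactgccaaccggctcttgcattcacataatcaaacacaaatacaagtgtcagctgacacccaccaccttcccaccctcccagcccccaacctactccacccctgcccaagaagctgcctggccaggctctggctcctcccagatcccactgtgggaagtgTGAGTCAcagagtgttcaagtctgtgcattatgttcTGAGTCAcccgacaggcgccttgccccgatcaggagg
TGANTCA was present in 7.81% of all promoter windows. Among the 19 tested members with a window it was found in Serpinb8 and in Serpina1a, Serpina1b, Serpina1c and Serpina1d, and 0 of these 5 genes were called. Of the other motifs searched on both strands, TTGCNNAA (the C/EBP core) was in 17 of the 61 serpin windows and in 10.8% of all windows, and TATAAA in 18 of the 61 and in 13.6%. The windows of Serpinb9 and Serpinb8 held no match to the other's motif. Tested members with no entry in the table were Serpina3k, Serpina3m, Serpina6, Serpina9, Serpina10, Serpinb1a and Serping1.

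Serpinb6a, an inhibitor of several intracellular and leukocyte proteases, was at 6.47 and 4.74 FPKM in wild type and 4.74 and 5.13 FPKM in knockout. Serpinb1a, which inhibits neutrophil elastase and cathepsin G, was at 2.00 and 1.08 FPKM in wild type and 1.27 and 2.36 FPKM in knockout. The pools of each genotype differed 1.86-fold for Serpinb1a, and its groups overlapped. The gene model of Serpinb6a overlaps Ripk1 and Nqo2 on the opposite strand, as those of Serpinc1 and Serpind1 overlap Zbtb37 and Pi4ka, so reads of such pairs may not have been separated. Serpinb6b at 0.645 to 0.794 FPKM, Serpinb1b at 0.297 to 0.903 FPKM and Serpinb2, which encodes plasminogen activator inhibitor 2, at 0.167 to 0.571 FPKM were expressed below the limit for testing. Of the 26 members of clade B, 9 were listed at 0 in all 4 libraries.

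Outside clades A and B, Serpinf1 and Serpinh1 were tested, and 0 of the 2 passed limma or limma voom or had an unadjusted p under 0.05. Serpinf1 encodes pigment epithelium-derived factor, a secreted serpin that does not inhibit proteases. It was at 128 and 136 FPKM in wild type and 148 and 116 FPKM in knockout, with a log2 fold change of -0.0061 (95% confidence interval -0.43 to 0.42). Its sign changed under other scalings. Serpinh1, the collagen chaperone HSP47 of the endoplasmic reticulum, was at 10.6 and 6.43 FPKM in wild type and 3.88 and 7.38 FPKM in knockout (log2 fold change -0.58, SE 0.37, limma adjusted p = 0.372). Its value was -0.16 without knockout pool 1 and -0.24 without wild-type pool 1, and larger in size without the other pool of either genotype. Stellate cell and fibroblast markers, cells in which collagen is made, summed to 52.1 and 57.6 FPKM in wild type and 54.9 and 47.8 FPKM in knockout, with Dcn the largest part. Of 9 tested, 0 passed limma or limma voom and 3 had an unadjusted p under 0.05, against 27.1% of all genes. These 3 were all lower, namely Acta2 (-1.24), Pdgfrb (-0.58) and Des (-0.48 on the log2 scale). Col3a1, Lrat and Col14a1 had log2 fold changes above 0, at 0.44, 0.17 and 0.15. The part of these cells in the Serpinh1 values was not tested.

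Protease inhibitors of other families and the plasma proteins secreted alongside the serpins gave a background for these values. Of 35 inhibitors of other families, 23 were tested and 0 passed limma, while 9 had an unadjusted p under 0.05 (27.1% of all genes did) and limma voom called 2 higher and 1 lower (median log2 fold change 0.10). A2m had at most 2 reads. Of 35 plasma carriers, acute phase proteins and their regulators, 34 were tested, and 1 rose, 2 fell and 31 did not pass (median 0.32). Of all genes tested, 1.6% were called higher and 3.14% lower. An unadjusted p under 0.05 was found for 13 of the 34, against 27.1% of all genes. By limma voom 5 were called higher and 3 lower, beside 440 and 469 of all 11900 genes, so the balance of calls differed between the methods. Saa1 and Saa2, acute phase serum amyloid genes named after their values were seen, had the largest differences of the list without passing (log2 fold changes 3.86 and 3.92, limma adjusted p = 0.0679 and 0.0641). Saa1 was at 8.71 and 8.62 FPKM in wild type and 58.0 and 303 FPKM in knockout. Crp, an acute phase protein, was at 22.4 and 25.5 FPKM in wild type and 72.2 and 54.9 FPKM in knockout (log2 fold change 1.38, limma adjusted p = 0.0354). Lcn2, an iron-sequestering acute phase protein, was at 312 and 358 FPKM in wild type and 154 and 165 FPKM in knockout (log2 fold change -1.06, limma adjusted p = 0.0375). Socs3, the feedback inhibitor of interleukin-6 signalling, was at 32.1 and 33.7 FPKM in wild type and 12.7 and 11.1 FPKM in knockout (log2 fold change -1.44, limma adjusted p = 0.0258). Its receptor gene Il6ra was at 15.4 and 14.6 against 10.3 and 11.1 FPKM, and Stat3 at 29.4 and 29.3 against 26.6 and 19.2 FPKM. Neither passed (limma adjusted p = 0.0781 and 0.266). Agt encodes angiotensinogen, which belongs to the serpin fold but not to the naming rule. It was at 308 and 401 FPKM in wild type and 207 and 206 FPKM in knockout, lower in both knockout pools (log2 fold change -0.77, limma adjusted p = 0.0807).

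By position, 23 members lie in the clade A cluster of chromosome 12, 15 in the clade B cluster of chromosome 13 and 13 on chromosome 1. Tested members made up 15 of the 23 on chromosome 12 but 3 of the 15 on chromosome 13. On chromosome 1, 8 members were at 0 in all libraries. In total 34 members were not tested, of which 10 were at 0 throughout, 9 stayed under 0.1 FPKM and 15 reached 0.1 FPKM in at least 1 library. The last group, beside those given above, held Serpina3i at 0.151 to 0.572 FPKM, Serpina3c at 0.0264 to 0.374 FPKM, Serpini1 (neuroserpin) at 0.0649 to 0.120 FPKM and Serpinb6e at up to 0.156 FPKM. Serpina3c had 7 and 13 reads in wild type and 3 and 1 in knockout.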

How the data were processed

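Poly(A)-selected liver RNA was sequenced, per the labels' protocols. The authors deposited 1 table of FPKM with gene lengths and coordinates, per the file headers. The submitters' processing notes name HISAT2 2.0.5 and the builds mm10 and GRCm38.p6. The counting program and any use of strand were not given in the sources used here. FPKM times gene length, divided by each library's value for 1 read, gave whole reads for 100% of values above 0, within 0.01 read. The library total implied by the FPKM was not the same multiple of the summed recovered reads in each pool. It was 1.02 and 0.943 times that sum in wild type and 1.00 and 1.05 times in knockout. Precision is limited by 2 pools per genotype, and p-values measure the spread between pools.

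The test was limma 3.58.1 (R 4.3.3, mean-variance trend, two-sided) on log2(FPKM + 0.5) over 11900 genes averaging at least 1 FPKM. Adjustment was by Benjamini-Hochberg with a threshold of 0.05. Fold changes on this scale understate those of low genes. On simulated data the procedure gave changed genes the right sign, but the share of false calls was above the nominal 0.05 in every set. Those sets had the same spread setting for every gene and few changed genes, so the share may differ in these data. Calls near the threshold may be less certain than their adjusted p.

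All tested members that are reported were named, as were other members from 0.1 FPKM. Of each related list, called members and a fixed few were named. The members and lists were chosen with earlier results of these data known. Of the 61 members, 1 is not reported here, and its row entered the fit over all genes but no count or figure of members. The other 60 were found in GENCODE M21, 59 with the same coordinates. Alternatives covered pseudocount, filter, scaling, variance model, limma voom, protein-coding genes, a replicate block, leaving out each library and summed paralogs. Figures used matplotlib 3.10.9.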

Additional observations from a re-analysis of the deposited data

How the results depend on the processing

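Serpina6 and Serpinb9 kept their direction in every alternative that tested them, but not their calls. Serpina6 kept its call in 6 of 13 alternatives (log2 fold change -1.67 to -1.20, limma adjusted p 0.0206 to 0.120) and Serpinb9 in 7 of 13 (0.95 to 1.53, 0.0156 to 0.140). Against 564 genes in all, 0 were called with no filter on low values (4388 had an unadjusted p under 0.05), 280 without the variance trend, 909 by limma voom and 1014 among protein-coding genes alone. Leaving out 1 library gave 0 to 234 genes. Among serpins, 0 were called lower with no filter, 0 without the trend, 0 with a filter of 5 FPKM and 0 after rescaling to recovered reads. The count of serpins called higher was 0 with no filter, 0 with the filter of 5 FPKM, 0 with the replicate block and 0 to 0 with a library left out. The zeros at 5 FPKM follow from the filter, which removed Serpina6 and Serpinb9 before the test. Fewer libraries were fitted when 1 was left out, and the cause of the other changes was not tested.

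Pools share a replicate number across genotypes, but no label pairs them, and deviations of same-numbered pools correlated at -0.14. With the replicate block, 310 genes were called, with 1 serpin lower and 0 higher, and Serpinb9 had an adjusted p of 0.0734.

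Some differences that passed in no setting changed sign. Serpinf1 was at 0.058 after rescaling to recovered reads and 0.057 by limma voom. With 1 library left out, the log2 fold change ranged from -0.78 to 0.29 for Serpina11, from -0.033 to 0.14 for Serpina1b and from -0.061 to 0.42 for Serpina3k. It ranged from -0.57 to 0.22 for Serpina7, from -0.17 to 0.52 for Serpinb1a and from -0.36 to 0.053 for Serpinb6a. The ranges were -0.088 to 0.30 for Serpinc1, -0.18 to 0.17 for Serpinf1 and -0.064 to 0.18 for Serping1. A further 12 of the 26 members kept their sign while the value moved by over 1.5 times. With 1 library in a genotype, that library was assumed to vary like the other genotype. Depth limited the members under 10 reads in every pool, of which there were 25.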
